A study of Rattus norvegicus with 11 samples.

Results

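The insulin and insulin-like growth factor (IGF) genes described here are Igf1, Igf2, Igf1r, Insr, Igf2r, Igfbp3, Igfbp5, Igfbp6, Irs1 and Akt1. Every probe set whose only gene symbol in the platform annotation is one of these was taken, dim ones included, which gave 24 probe sets for 10 genes, out of 8740 probe sets that are not controls. Each probe set combines several short probes against the same transcript into 1 value. The samples are 11 arrays of total RNA from the ventricle of the heart, taken from rats of the inbred strain Fischer-344. The old group holds 6 arrays from rats of 22 months and the young group 5 arrays from rats of 4 months, and the labels name no treatment or genotype beyond the strain. The single comparison is old against young, and it asks which ventricular transcripts differ with age. Nothing in the labels says that each array came from a separate rat, so p-values measure only how these samples vary, and part of that variation may be technical.

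IGF1 and IGF2 are small secreted hormones related to insulin. They act through the type 1 IGF receptor, a tyrosine kinase, and insulin acts through the closely related insulin receptor, while the IGF2 receptor carries IGF2 into the cell for breakdown. A family of secreted binding proteins holds the IGFs in blood and tissue and limits or prolongs their access to receptors. Activated receptors phosphorylate substrates such as IRS1, and the signal passes through phosphoinositide 3-kinase to the kinase AKT. In heart muscle the pathway is known for its part in growth of muscle cells, in their survival and in the uptake of glucose.

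The values are linear intensities as the authors deposited them, scaled per array to a common mean. For the fit, values under 47.4, the 20th percentile of the table, were raised to that floor before the log2 was taken. Each difference is old minus young in log2 units and is followed by limma's standard error, and a difference of 1 means 2-fold. Intensities of different probe sets are not compared, because each probe set has its own brightness. In the arrays as a whole, heart muscle markers were bright: 8 of 10 listed markers were on the array, and their summed intensity was 303675 to 480488 in old and 290670 to 443570 in young. Old replicates 3 and 4 stood apart by the 3' over 5' ratio of the GAPDH control (log2 3.39 and 4.09, against 0.77 or less elsewhere), a measure that increases when RNA is degraded. The bacterial spike-in controls were brighter in old replicates 3 to 6 and young replicate 4 than in the other 6 arrays.

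No insulin or IGF probe set passed the test between old and young after adjustment over all probe sets, and neither did any other probe set of the table. The pair with the smallest p-values lay higher in old: Igfbp6, a binding protein that prefers IGF2, by 1.15 ± 0.46 (SE), and 1 of the 6 probe sets of Igf2, E00988mRNA_s_at, by 1.64 ± 0.60 (SE). The other Igf2 probe sets did not share that size of difference, and the main probe sets of Igf1, Igf1r, Insr, Igf2r and Akt1 differed by less than, or about as much as, their standard errors. Of the 24 probe sets, 12 were higher and 12 lower in old, with a median difference of -0.05. Without a filter on dim values, 58.4% of all 8740 probe sets were higher in old and their median difference was 0.11. In that fit 2 of the 24, or 8.33%, had an unadjusted limma p under 0.05, against 6.69% of all probe sets. The share of these genes was thus near the background. Both were higher in old, as were 3.91% of all probe sets at that p. Among the 5244 probe sets bright enough for the main test, 0% passed an adjusted p of 0.05 and 7.51% had an unadjusted p under 0.05. Of the 24 probe sets, 18 were bright enough, representing 9 of the 10 genes, and 2 of them, both higher in old, had an unadjusted p under 0.05, which 3.39% of all tested probe sets had in that direction. For 0 of the 24 were the old and young arrays fully apart, against 0.744% of all 8740 probe sets in that fit and 0.973% of the 5244. As these are whole-tissue samples, fewer cells of a type and less RNA per cell cannot be told apart.

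**Figure D1:**
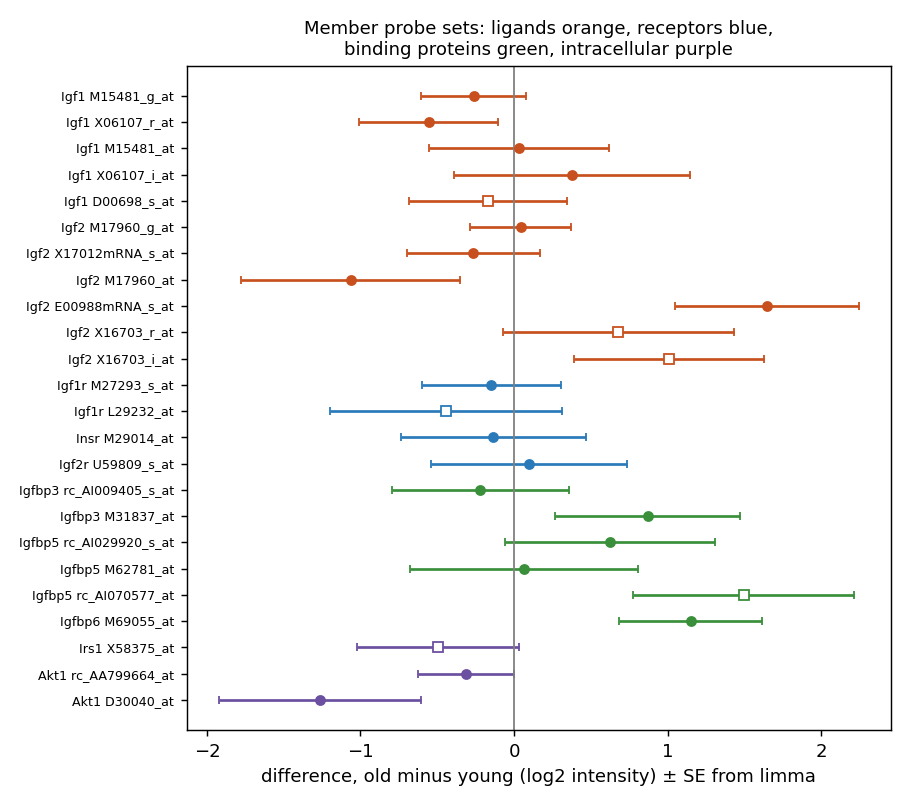
Difference between old and young for all 24 probe sets, on the log2 scale, with bars for the standard error from limma (6 old and 5 young arrays). Filled circles are the 18 probe sets of the main test and open squares the 6 dim ones, taken from the fit without a filter; Igf2 E00988mRNA_s_at at 1.64 and Igfbp6 at 1.15 lie farthest to the right among the filled circles, and Akt1 D30040_at at -1.26 farthest to the left.

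Igf1, which growth hormone induces in liver and many tissues, was read by 5 probe sets, 4 of them tested. The brightest, M15481_g_at, gave 633.4, 1093.7, 1055.8, 739.4 and 610.4 in young replicates 1 to 5. In old it ran from 579.3 to 873.1 with a median of 610.8. The ranges overlapped, although 3 of 6 old arrays lay below the lowest young one, and the difference was -0.26 ± 0.34 (SE, limma adjusted p = 0.874). A second probe set, X06107_r_at, had a median of 449.9 in old and 571.6 in young, with young replicate 2 alone at 2037.8. Its difference of -0.56 ± 0.45 (SE) did not pass either (limma adjusted p = 0.794), and it was -0.17 without young replicate 2. The remaining tested probe sets, M15481_at and X06107_i_at, differed by 0.03 ± 0.59 and 0.38 ± 0.77 (SE), and the dim D00698_s_at by -0.17 ± 0.51, with 6 of 11 arrays at the floor. On X06107_i_at the old arrays of high GAPDH ratio, replicates 3 and 4, were lowest of all at 60.2 and 59.4, and without them its difference was 1.39 ± 0.65 (SE, limma adjusted p = 0.887). Thus the Igf1 values pointed both ways.

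Igf2, a growth factor that is abundant before birth and is expressed from the paternal copy in many tissues, was read by 6 probe sets, 4 of them tested. On E00988mRNA_s_at the old arrays, replicates 1 to 6, read 276.4, 337.7, 214.0, 486.3, 82.7 and 541.0. The young arrays, replicates 1 to 5, read 80.3, 147.1, 66.5, 142.1 and 35.9. All old arrays but replicate 5 lay above the highest young array, and old replicate 5 lay within the young range. The log2 mean was 8.10 ± 0.99 in old (SD, n = 6) and 6.46 ± 0.71 in young (SD, n = 5). That is a 3.13-fold ratio, which did not pass (limma adjusted p = 0.56). Of all tested probe sets, 2.02% had a smaller p. The young mean lay under the filter on dim values, so this probe set entered the main test through the old arrays. Without the filter its limma adjusted p was 0.721. It was 0.88 ± 1.48 (SE) among the arrays with bright spike-ins, which hold 1 young array, and 1.97 ± 0.66 among the dim ones.

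The other Igf2 probe sets did not repeat this. The brightest, M17960_g_at, ran from 864.7 to 1671.5 in old, with a median of 1013.3, and read 736.9, 1415.6, 1355.5, 1093 and 765.9 in young replicates 1 to 5. The groups overlapped almost wholly and differed by 0.04 ± 0.33 (SE, limma adjusted p = 0.979). X17012mRNA_s_at differed by -0.27 ± 0.43 and M17960_at by -1.06 ± 0.71 (SE). In M17960_at, the old arrays of high GAPDH ratio, replicates 3 and 4, read 44.9 and 44.1, while the other 4 old arrays read 248.1 to 979.6 and the young arrays 307.2 to 711.8. Without those old arrays its difference was 0.01 ± 0.51, and without old replicate 6, the highest, it was -1.53 ± 0.68 (SE, limma adjusted p = 0.592). Leaving out single arrays gave -1.53 to -0.63. The dim X16703_i_at and X16703_r_at differed by 1.01 ± 0.62 and 0.68 ± 0.75, with 6 and 5 of 11 arrays at the floor.

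**Figure D2:**
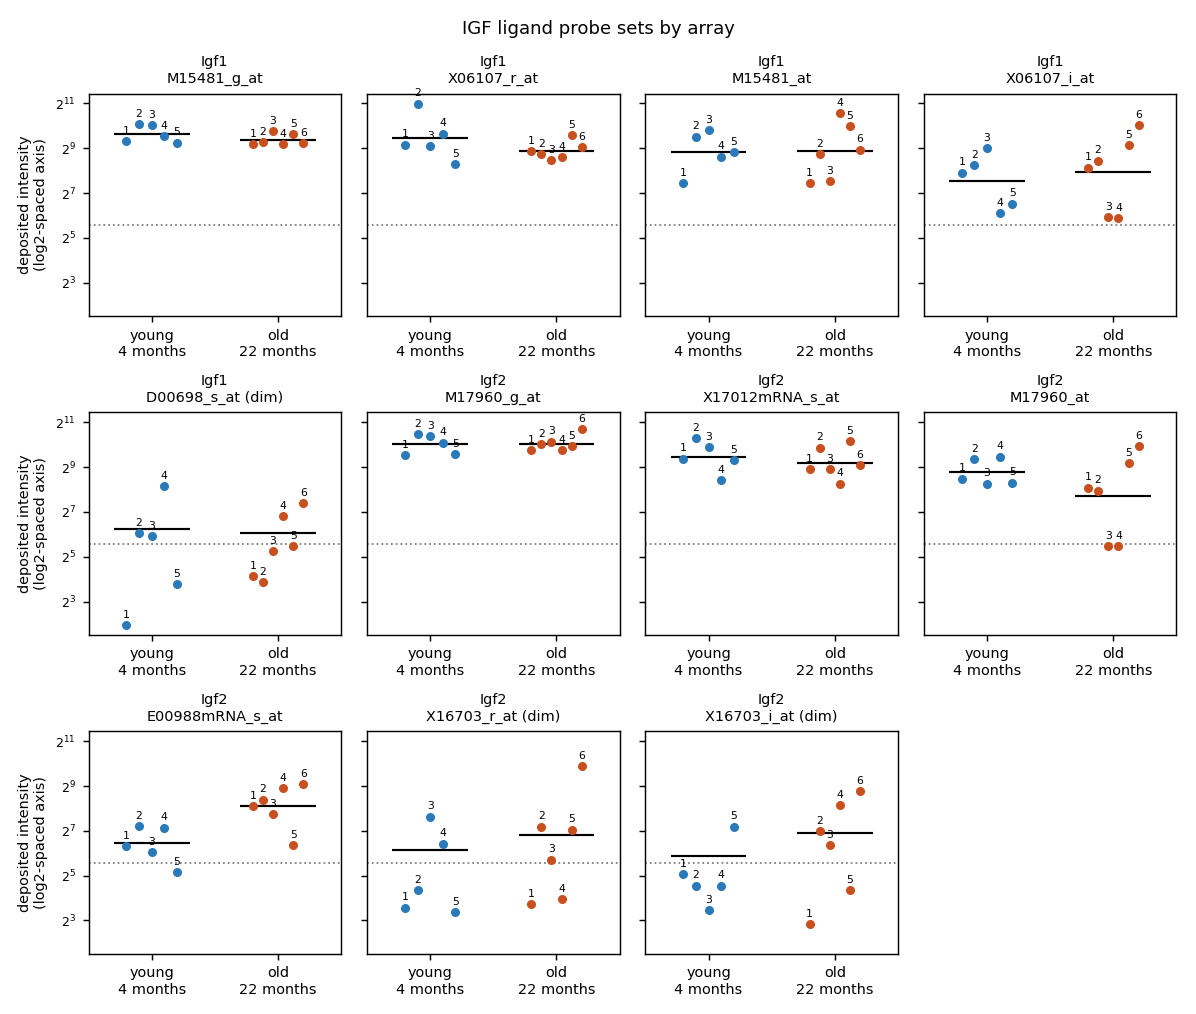
Deposited intensity of the 11 Igf1 and Igf2 probe sets on each array, on a log2-spaced axis, young in blue and old in orange, with the replicate number at each point. Black bars are group means of the floored log2 values and the dotted line is the floor of 47.4; on Igf2 E00988mRNA_s_at 5 of 6 old arrays lie above all young ones, while on M17960_g_at the groups overlap.

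Igf2 is transcribed from more than one start, and the promoter table made from RefSeq on assembly GRCr8 holds windows for 2 of them. The annotated gene, on the minus strand of chromosome 1, extends to position 207261263, upstream of both windows, so at least 1 further annotated start is not shown. The array does not tell which start a transcript came from, and the position of the probes of each set was not used here. The 250 bases before each of these starts are shown, with those before the start of Igfbp6, because these are the genes whose probe sets had the smallest p-values. Capitals mark the GC box GGGCGG, searched on both strands along with the TATA box letters TATAAA. Igf2 lies on the minus strand at chr1:207253981-207254230 and chr1:207250476-207250725, and the Igfbp6 window on the plus strand at chr7:135154669-135154918.
Igf2 first window: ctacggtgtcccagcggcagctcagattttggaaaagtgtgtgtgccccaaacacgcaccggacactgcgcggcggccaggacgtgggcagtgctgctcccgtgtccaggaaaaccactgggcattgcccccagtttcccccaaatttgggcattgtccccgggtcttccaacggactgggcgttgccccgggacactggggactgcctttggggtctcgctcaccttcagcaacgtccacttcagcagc
Igf2 second window: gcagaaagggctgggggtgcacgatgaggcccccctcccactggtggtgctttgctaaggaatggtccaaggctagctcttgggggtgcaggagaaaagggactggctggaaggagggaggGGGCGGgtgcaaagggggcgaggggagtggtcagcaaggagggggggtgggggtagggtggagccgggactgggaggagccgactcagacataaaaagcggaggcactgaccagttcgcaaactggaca
Igfbp6: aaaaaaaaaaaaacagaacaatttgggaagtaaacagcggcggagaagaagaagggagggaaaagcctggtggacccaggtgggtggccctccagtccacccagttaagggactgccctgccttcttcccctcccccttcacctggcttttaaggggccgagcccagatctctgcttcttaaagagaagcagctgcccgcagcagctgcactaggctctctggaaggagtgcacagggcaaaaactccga
The second Igf2 window held 1 GC box, and the other windows held 0. None of these windows held TATAAA. Of all 33469 promoter windows of this length in the table, 30.5% held the GC box letters and 12.9% TATAAA, so these counts describe the sequences and show no regulation.

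Of the binding protein probe sets, which stand for 3 genes, 5 of 6 were higher in old, with a median difference of 0.75, and 0 passed the test. In the fit without a filter, 58.4% of all 8740 probe sets were higher in old. Of the 5 that were bright enough for the main test, 4 were higher, against 49.4% of all 5244 tested. Igfbp6 was read by 1 probe set, M69055_at, which was above the floor on every array. The old arrays, replicates 1 to 6, read 1512.4, 988.5, 809.6, 612.3, 879.9 and 1482.7. The young arrays, replicates 1 to 5, read 613.9, 609.5, 699, 117.5 and 590.3. Old replicate 4 lay within the young range and the other 5 old arrays above it, and young replicate 4 lay far below all others. The log2 mean was 9.96 ± 0.51 in old (SD, n = 6) and 8.81 ± 1.08 in young (SD, n = 5). That is a 2.22-fold ratio, which did not pass (limma adjusted p = 0.56), and 3.87% of all tested probe sets had a smaller p. Without young replicate 4 the difference was 0.67 ± 0.37 (SE, limma adjusted p = 0.627). It was 0.96 ± 0.36 among the arrays with dim spike-ins and 2.93 ± 0.94 among the bright ones, where young replicate 4 is the only young array. With each array centred on its median it was 0.86 ± 0.51 (SE, limma adjusted p = 0.567).

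Igfbp3, the main IGF carrier of blood, was read by a pair of probe sets that differed in sign. M31837_at ran from 95.4 to 458.9 in old, with a median of 365.2, and read 234.1, 228.6, 250, 127.4 and 47.2 in young replicates 1 to 5. Old replicates 2, 3, 4 and 6 lay above every young array, and the difference was 0.87 ± 0.60 (SE, limma adjusted p = 0.755). Without young replicate 5, the array at 47.2, it was 0.45 ± 0.59. The brighter rc_AI009405_s_at ran from 69.6 to 591.9 in old and from 131.4 to 402.5 in young, and differed by -0.22 ± 0.58.

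Igfbp5, which also binds extracellular matrix, was read by 3 probe sets. The brightest, rc_AI029920_s_at, had a median of 313.7 in old and 203.6 in young and differed by 0.63 ± 0.68 (SE, limma adjusted p = 0.849), with old replicate 6 lowest of all at 40.1. Without that array it was 1.11 ± 0.58, and without young replicate 5, 4 or old replicate 5 it was 0.31, 0.34 or 0.35. M62781_at differed by 0.06 ± 0.74, and there old replicate 6 was the highest array at 833.1, so these probe sets ordered the arrays differently. The dim rc_AI070577_at read 393.7, 179.8, 69.2 and 878 in old replicates 3 to 6, above all young arrays, and 24.1 and 12.7 in old replicates 1 and 2, under the floor. Young arrays read 8 to 68.3 there. The old arrays that were high on it are those with bright spike-ins, and its difference of 1.49 ± 0.72 (SE) had an adjusted p of 0.721 in the limma fit without a filter.

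**Figure D3:**
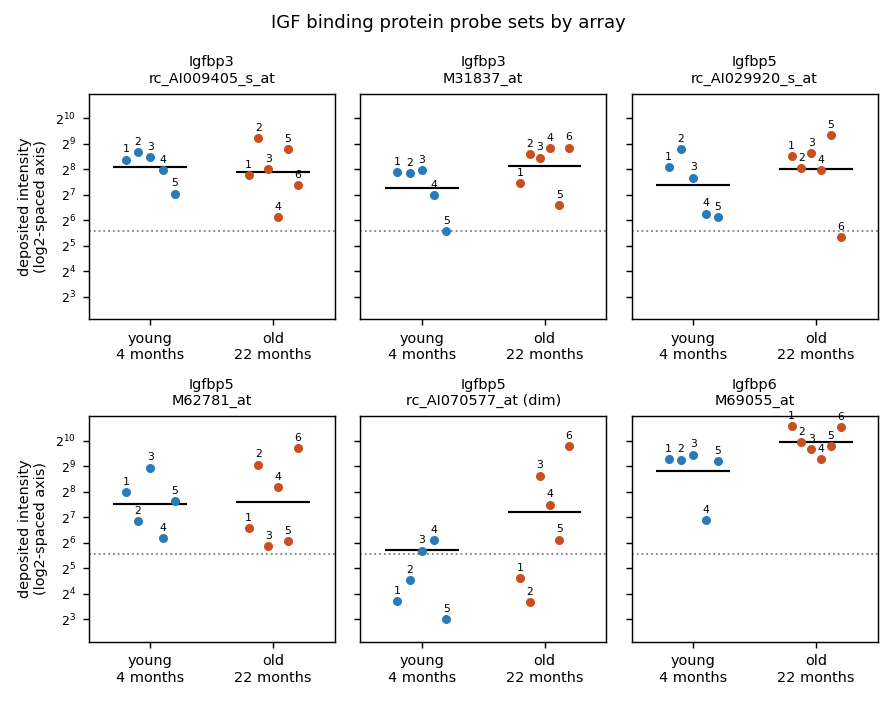
Deposited intensity of the 6 binding protein probe sets on each array, on a log2-spaced axis, young in blue and old in orange, with replicate numbers, group means of the floored log2 values (black bars) and the floor of 47.4 (dotted). For Igfbp6, 5 of 6 old arrays lie above the young arrays and young replicate 4 lies apart at 117.5.

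Markers of other cell types also differed in level between the arrays, and none passed the adjusted threshold between old and young. Among connective tissue markers 7 of 8 were on the array, and 3 of 6 tested were higher in old: Lum, a matrix proteoglycan gene, by 1.19 ± 0.37 (SE, limma adjusted p = 0.537), Pdgfra, a growth factor receptor gene, by 0.60 ± 0.31 (SE) and Dcn by 0.21 ± 0.37. The other 3, the collagen genes Col3a1, Col1a1 and Col1a2, were lower in old, at -0.91 ± 0.48, -0.74 ± 0.49 and -0.22 ± 0.34 (SE). For Lum and Pdgfra all old arrays lay above all young ones. These were 2 of the 41 tested markers of all lists, or 4.88%, and the groups were fully apart for 0.973% of all 5244 probe sets tested. Connective tissue markers had a summed intensity of 24971 to 64655 in old and 28378 to 78561 in young. Such a sum is weighted to the brightest genes of its list, such as Dcn here, Lep for fat and Hbb for blood. Smooth muscle markers were higher in 4 of 4, with sums of 808 to 16936 in old, highest in replicates 3 and 4, and 679 to 2927 in young. Macrophage markers were higher in 3 of 5, with sums of 3462 to 38439 in old, highest in replicate 3, and 2444 to 4177 in young. In old replicate 3 that sum was mostly Lyz2, at 35867.8. Cd14 and C1qc, at 253.9 and 201.7 there, were lower than on any other array. Atrial markers were higher in 3 of 3, with sums of 9876 to 97376 in old and 3758 to 35863 in young. Endothelial markers were higher in 0 of 3, with sums of 373 and 480 in old replicates 3 and 4 and 1443 to 1999 on the other arrays. Fat markers were higher in 3 of 4 and summed to 4873 to 6346 in old and 4714 to 5693 in young, and blood markers were higher in 2 of 2, with sums of 13116 to 177090 and 1211 to 72936. No marker of these lists lay at the floor on every array. Of skeletal muscle markers 2 of 2 tested were higher (634 to 2062 in old, 282 to 1060 in young), and of liver markers 2 of 4 (1078 to 2442 and 947 to 2948). Over all lists, 6 of 41 tested markers, or 14.6%, had an unadjusted limma p under 0.05, against 7.51% of all 5244 probe sets tested. All 6 were higher in old, as were 3.39% of all probe sets at that p: C1qb and Lyz2 of macrophages, Lum, Cfd of fat, Nppa of the atrium and Alb of liver. In the macrophage list Cd14 and C1qc were lower in old, at -0.31 ± 0.45 and -0.11 ± 0.54 (SE). Lep of the fat list was also lower, at -0.39 ± 0.28. So were Apoa1 and Serpina1 of the liver list, at -0.74 ± 0.68 and -0.71 ± 0.76. The young mean of Alb lay under the filter on dim values, so Alb was tested through the old arrays. The part of these cell types in the binding protein values was not tested.

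The receptors showed no difference past their error. Igf1r, through its brighter probe set M27293_s_at, had a median of 536.5 in old and read 357.8, 739.6, 450, 762.8 and 440 in young replicates 1 to 5. Old replicate 3 was lowest at 160.2 and old replicate 4 highest at 795.8, so the old arrays spanned the young ones, and the difference was -0.15 ± 0.45 (SE, limma adjusted p = 0.955). The dim L29232_at differed by -0.44 ± 0.75.

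Insr (M29014_at) gave 373.4, 399.5, 464.7, 392.3 and 549.7 in old replicates 1 to 5 and 40.6, under the floor, in old replicate 6. The young arrays ran from 205.6 to 602.5. The difference was -0.13 ± 0.60 (SE, limma adjusted p = 0.973), and without old replicate 6 it was 0.40 ± 0.41, while without young replicate 2, the highest array, it was 0.08 ± 0.65, so the sign rests on single arrays. Igf2r (U59809_s_at) ran from 127.8 to 762.3 in old and from 74.4 to 596.6 in young, and differed by 0.10 ± 0.64 (SE, limma adjusted p = 0.978).

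Of the intracellular genes, Akt1, a kinase that carries the signal to metabolism and cell survival, was lower in old on both probe sets without passing. The brighter, rc_AA799664_at, ran from 808.6 to 1675.2 in old, with a median of 1282.5, and read 2057, 1676.7, 1410.9, 1277.6 and 1334.7 in young replicates 1 to 5. Its difference was -0.31 ± 0.31 (SE, limma adjusted p = 0.837), and 3 of 6 old arrays lay below every young one. D30040_at read 393.9, 936.9, 134.5, 114.7, 188.3 and 1043.3 in old replicates 1 to 6 and 1411.8, 1684.8, 733.4, 174.5 and 912.8 in young replicates 1 to 5. The arrays at 188.3 or less were old replicates 3, 4 and 5 and young replicate 4, each with bright spike-ins. Old replicates 3 and 4, the lowest of all at 134.5 and 114.7, are also the arrays of high GAPDH ratio. The fifth bright array, old replicate 6, has the brightest spike-ins and read 1043.3, the highest old value. Its difference of -1.26 ± 0.66 (SE, limma adjusted p = 0.661) was -0.39 ± 0.62 with the spike-in level as a block and 0.43 ± 1.52 among the bright arrays alone. It was -1.80 ± 0.62 without young replicate 4 (SE, limma adjusted p = 0.482) and -1.60 ± 0.45 with the replicate block (SE, limma adjusted p = 0.491). Of its 26 alternatives, 6 had an unadjusted p under 0.05 and 0 an adjusted one. Irs1 (X58375_at), the receptor substrate, was too dim to be tested: it ran from 27.5 to 180.3 in old and from 18.4 to 303.1 in young, with 4 of 11 arrays at the floor and a difference of -0.49 ± 0.53.

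**Figure D4:**
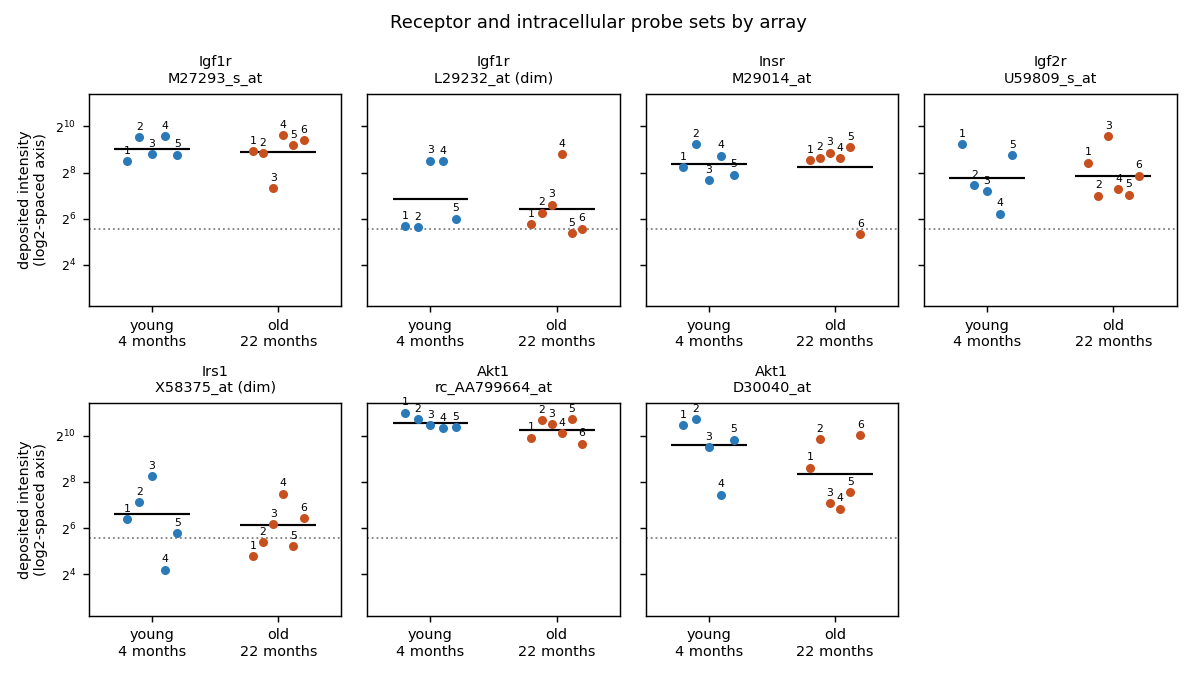
Deposited intensity of the 7 probe sets of Igf1r, Insr, Igf2r, Irs1 and Akt1 on each array, on a log2-spaced axis, young in blue and old in orange, with replicate numbers, group means of the floored log2 values (black bars) and the floor of 47.4 (dotted). Insr in old replicate 6, at 40.6, lies apart from the other old arrays, and Akt1 D30040_at is at 188.3 or less in old replicates 3, 4 and 5 and young replicate 4.

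Probe sets of the same gene followed each other only loosely across the 11 arrays. Among 15 pairs of tested probe sets of 1 gene, Pearson's r ran from -0.457 to 0.609 with a median of 0.241, and 4 pairs were negative. The highest was Igf1 M15481_g_at with X06107_r_at (r = 0.609, permutation p = 0.0385, adjusted p = 0.577 over the 15 pairs; Spearman's rho = 0.527, permutation p = 0.1, adjusted p = 0.671). It was 0.302 without the 2 arrays farthest from the median of M15481_g_at. Leaving these out also narrows the range, so the fall does not show that r rests on them. The lowest was Igfbp5 rc_AI029920_s_at with M62781_at (r = -0.457, permutation p = 0.157, adjusted p = 0.651; rho = -0.6, permutation p = 0.0552, adjusted p = 0.671), at -0.198 without the 2 farthest arrays. For Igf2, E00988mRNA_s_at had r of 0.316, -0.441 and -0.261 with M17960_g_at, X17012mRNA_s_at and M17960_at (permutation adjusted p = 0.651 for each).

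Further genes of the pathway were taken from a list of 64, of which 45 were on the array and 35 had a tested probe set, each gene by its brightest. Of these 35, 22 were lower and 13 higher in old, with a median difference of -0.13, against -0.01 over all 5244 probe sets tested. That background includes dimmer probe sets. With the filter at the 60th percentile, the median of all probe sets kept was -0.09, and 44.3% were higher in old. Of the 35 genes, 0 passed limma's adjusted threshold and 3, or 8.57%, had an unadjusted p under 0.05, near the 7.51% of all 5244 probe sets. These 3 were lower in old, as were 4.12% of all probe sets at that p. Over all 62 tested probe sets of these genes, 6 had such a p, 4 of them lower and 2 higher in old. Slc2a4, the glucose transporter that insulin moves to the cell surface, ran from 763.8 to 2043.1 in old on D28561_s_at and read 2319.5, 2244.9, 2446, 1718.1 and 2748.6 in young replicates 1 to 5. Old replicate 4 was the only old array within the young range, and the difference was -0.95 ± 0.31 (SE, limma adjusted p = 0.56). Its other probe set differed by 0.48 ± 0.52 (SE), in the opposite direction. Map2k2, a kinase of the mitogen-activated cascade, differed by -0.73 ± 0.29 (SE).

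Igfbp2, a further binding protein, differed by -1.49 ± 0.59 (SE) on M91595exon_s_at. Its probe set J04486_at went the other way by 1.40 ± 0.69 and a dim one by 0.49 ± 0.72. The young mean of J04486_at lay under the filter on dim values, so it was tested through the old arrays. Igfals, the acid-labile subunit that joins IGF carrier complexes in blood, and Akt2, a kinase of insulin-dependent glucose uptake, followed among the lower genes with -0.92 ± 0.50 and -1.06 ± 0.62 (SE). The other probe sets of Igfals differed by -1.21 ± 0.58 and -0.09 ± 0.47. The 5 higher genes with the smallest p were Rps6, a ribosomal protein phosphorylated downstream of the pathway, at 0.51 ± 0.39, Grb2 at 0.33 ± 0.30 and Sos1 at 0.41 ± 0.41, adaptor and exchange factor of the RAS branch, the insulin-degrading enzyme gene Ide at 0.27 ± 0.36 and Stat5a, a transcription factor of growth hormone signalling, at 0.48 ± 0.74. The other tested probe set of Rps6 differed by 0.04 ± 0.39, and a dim one of Sos1 by -0.67 ± 0.42 (SE). Probe sets that were not the brightest of their gene could also differ more. Rps6kb1, a kinase that acts on Rps6, had its young arrays at 17.8 to 147.6 and its old arrays at 149.8 to 438.4 on M58340_at. The groups were fully apart by a narrow margin, as they were for 0.973% of all 5244 probe sets tested. The difference was 1.39 ± 0.55 (SE, limma adjusted p = 0.56), whereas the brightest probe set of Rps6kb1 differed by -0.32 ± 0.61. The young mean of M58340_at lay under the filter on dim values, so it entered the main test through the old arrays. Map2k1, a kinase beside Map2k2, differed by -1.53 ± 0.61 on D14591_s_at (SE, limma adjusted p = 0.56) and by -0.13 ± 0.45 on its brightest. Its other tested probe set, L04485mRNA_s_at, differed by 0.47 ± 0.61, in the opposite direction. On D14591_s_at the old mean lay under the filter, so that probe set entered the main test through the young arrays. Grb2 differed by 1.08 ± 0.45 on D49847_at (SE, limma adjusted p = 0.572) and by -0.18 ± 0.36 on rc_AI170776_s_at. These were named after their values were seen. The growth hormone receptor gene Ghr, chosen after its values were seen because it lies upstream of Igf1, differed by -0.45 ± 0.57 and -0.70 ± 0.57 on its tested probe sets.

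**Figure D5:**
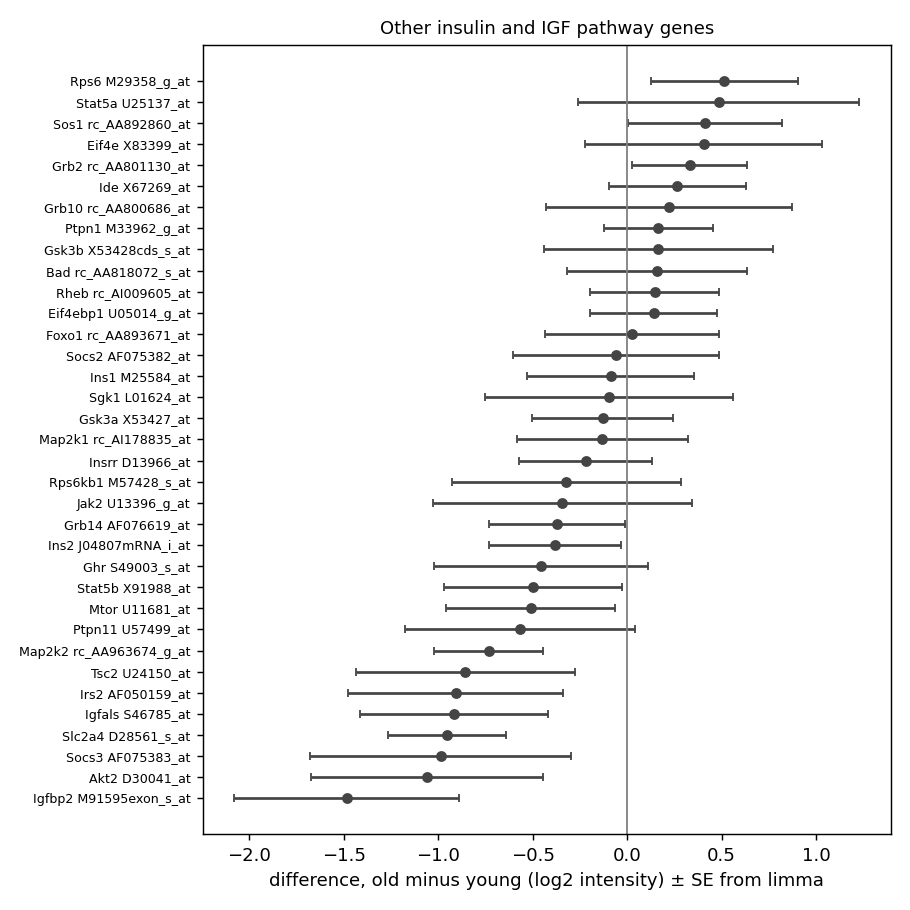
Difference between old and young, on the log2 scale with bars for the standard error from limma, for the 35 tested genes of the wider pathway list, each by its brightest probe set and ordered by the difference. Of these, 22 lie below 0; Igfbp2 is lowest at -1.49.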

How the data were processed

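RNA abundance was measured on 11 Affymetrix rat arrays. The deposited table holds a linear intensity per probe set and array, from 0.2 to 307756, for 8799 probe sets. For the authors' software, background correction and detection calls, the sources used here give nothing. After trimming 2% of values from each end, array means were 499.63 to 499.99, so deposited intensities had been scaled, and a shared change in total signal cannot be seen. From these, log2 values were computed with a floor at the 20th percentile, 59 control probe sets were left out, and 5244 probe sets with a mean at or above the 40th percentile were tested with limma 3.58.1 (R 4.3.3; lmFit, eBayes with trend, Benjamini-Hochberg over all tested, threshold 0.05). Standard errors of the 6 dim probe sets come from the fit without a filter. The number of arrays limits the precision: the median standard error was 0.56. In simulated data for old against young, over 5244 probe sets, limma found 9.2% of 2-fold and 55.6% of 4-fold differences. The simulated noise was normal and independent, with no floor and no differences shared by a whole array. The rates in the real arrays may therefore differ. Symbols came from the platform annotation, and all 10 genes matched RefSeq GRCr8. Values were given for the probe set with the smallest p of each role and the brightest of each gene, per array or as a group's range or median. Pathway genes were named if p was under 0.05, or, with under 5 such genes, as the 5 with the smallest p per direction. The members, gene lists and alternatives were chosen with earlier results of these data known. Replicate numbers were not used to pair the arrays in the main test. Alternatives were other floors and filters, other scalings, the variance model, array weights, a replicate block, spike-in and GAPDH controls, and leaving out each array.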

Additional observations from a re-analysis of the deposited data

Results flagged for a closer look

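In 48 groups (24 probe sets in old and in young), 8 values, from 5 arrays, stood far from the rest of their group by Dixon's criterion. Chance gives about 1 in 20 groups where values are not tied, a rate that does not hold for groups with arrays at the floor, and 6 of the 8 values lie in such groups. Without the floor 5 of the 8 stood apart, and Igf1 D00698_s_at, Igf2 X16703_i_at and Igfbp5 rc_AI070577_at did not. Values are floored log2 intensities. Young replicate 4 stood apart for Igfbp6 M69055_at at 6.88, low, and high for Igf1 D00698_s_at at 8.15 and Igfbp5 rc_AI070577_at at 6.09. Old replicate 6 lay at the floor, 5.57, for Insr M29014_at and for Igfbp5 rc_AI029920_s_at. Old replicate 3 was low for Igf1r M27293_s_at at 7.32, and old replicate 4 high for Igf1r L29232_at at 8.80. Young replicate 5 was high for Igf2 X16703_i_at at 7.19, where the other young arrays lay at the floor.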

How the results depend on the processing

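Over 27 alternatives, 0 member probe sets and 0 pathway genes passed the adjusted threshold. Of 18 tested probe sets, 7 kept their sign under each alternative that tested them (25 to 27): Igf1 M15481_g_at and X06107_r_at, Igf2 E00988mRNA_s_at, Igfbp3 M31837_at, Igfbp5 rc_AI029920_s_at, Igfbp6 M69055_at and Akt1 rc_AA799664_at. Over all probe sets, limma's calls went from 0 to 5 with the bright spike-in arrays alone, whose lone young array is assumed to vary like the others, to 1 with the dim ones alone, and to between 0 and 2 when an array was left out (2 without old replicate 5). Members with an unadjusted p under 0.05 numbered 1 to 4 (4 without old replicate 6, 1 without old replicate 1), and pathway genes 0 to 6 (1 without the arrays of high GAPDH ratio, 6 without old replicate 6). Quantile normalization and median centring moved the median of all tested probe sets by -0.10 and -0.29, and the share higher in old from 49.4% to 42.2% and 30.9%. The causes of the changes of sign below were not tested.

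Quantile normalization gave -0.13 for Igf1 M15481_at, -0.012 for Igf2r U59809_s_at and -0.11 for Igfbp5 M62781_at. Median centring gave -0.26 for Igf1 M15481_at, -0.25 for Igf2 M17960_g_at, -0.19 for Igf2r and -0.22 for Igfbp5 M62781_at. Array weights gave 0.063 for Igf1r M27293_s_at, 0.31 for Insr M29014_at, -0.58 for Igf2r, 0.16 for Igfbp3 rc_AI009405_s_at and -0.16 for Igfbp5 M62781_at. The spike-in level as a block gave -0.26 for Igf1 M15481_at, -0.049 for Igf2 M17960_g_at, 0.039 for Igf2 X17012mRNA_s_at and 0.077 for Igfbp3 rc_AI009405_s_at. As a covariate it gave -0.34 for Igf1 M15481_at, -0.15 for Igf2 M17960_g_at, 0.34 for Insr and 0.18 for Igfbp3 rc_AI009405_s_at. The dim arrays alone gave -0.80 for Igf1 M15481_at, -0.11 for Igf2 M17960_g_at, 0.33 for Insr, -0.44 for Igf2r, 0.36 for Igfbp3 rc_AI009405_s_at and -0.031 for Igfbp5 M62781_at. The bright arrays alone gave 0.67 for Igf2 X17012mRNA_s_at and 0.43 for Akt1 D30040_at. Without the arrays of high GAPDH ratio, values were -0.057 for Igf1 M15481_at, 0.038 for Igf2 X17012mRNA_s_at, 0.012 for Igf2 M17960_at, 0.056 for Igf1r M27293_s_at, -0.18 for Igf2r and 0.19 for Igfbp3 rc_AI009405_s_at. The mean of all probe sets gave 0.33 for Igfbp3.

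Same-numbered arrays correlated at -0.25 to 0.25 in their deviations from the group means. Differently numbered arrays were not set beside these, so whether the numbers pair the arrays cannot be judged from them. The replicate block, in which old replicate 6 stands alone, gave -0.046 for Igf1 X06107_i_at, -0.087 for Igf2 M17960_g_at, 0.40 for Insr and -0.36 for Igfbp5 M62781_at, with 4 members at an unadjusted p under 0.05 and 0 calls.

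Leaving out each array gave ranges that crossed 0 for Igf1 M15481_at (-0.32 to 0.32) and X06107_i_at (-0.046 to 0.78), Igf2 M17960_g_at (-0.087 to 0.16), Igf1r M27293_s_at (-0.30 to 0.16), Insr (-0.32 to 0.40), Igf2r (-0.29 to 0.46), Igfbp3 rc_AI009405_s_at (-0.49 to 0.13) and Igfbp5 M62781_at (-0.36 to 0.42). Igfbp6 ran from 0.67 to 1.31 and Igf2 E00988mRNA_s_at from 1.42 to 1.997. With 6 and 5 arrays, and dim probe sets near the floor, differences of about 2-fold were mostly not detectable.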
